A study of Mus musculus with 10 samples.

Results

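Mural cells and fibroblasts surround the endothelial cells (ECs) of brain vessels, and 43 genes of these neighbours were followed across messenger RNA libraries labelled as mouse cortical ECs. The genes were taken by symbol from the 21612 genes of the table and are markers and regulators of pericytes, smooth muscle and fibroblasts together with matrix genes other than collagens. All 43 were in the table. The labels placed the 10 libraries in 4 groups, all of WT genotype, namely adult ECs treated with MS-275 at 10 µM (n = 2), adult ECs treated with Wnt3a at 200 nM (n = 2), untreated adult control ECs (n = 3) and untreated E13.5 ECs from embryos (n = 3). The study's methods give the mice as C57BL/6J, the adults as males of an age range not repeated here, and Wnt3a as a mass per volume in place of a molar dose. The compound MS-275, also named entinostat, blocks the class I histone deacetylases (HDACs), and Wnt3a signals through β-catenin. The methods describe cortices stripped of pia or meninges, pooled, plated on collagen and expanded in EC medium with use at the second passage, and they name no cell sort for these libraries. The labels call the libraries of a group biological replicates. The main p-values rest on the spread within groups, pooled over all 10 libraries.

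Pericytes sit in the basement membrane of capillaries and are recruited by PDGF-B, which ECs release and PDGFRβ on the pericyte receives. Smooth muscle cells wrap arteries and contract through actin, myosin and their partners, while fibroblasts of the meninges and of larger vessels lay down elastic fibres and proteoglycans. Both kinds of cell are known in the forebrain to derive largely from neural crest, and both are common companions of ECs in cultures from brain.

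Values are normalised counts, which are gene counts divided by a size factor of the library. Libraries held 21171509 to 31810932 reads on genes. Of 14 endothelial markers, the summed level was 27901 to 38840 in MS-275, 201055 to 250743 in Wnt3a and 254157 to 337672 in adult control, against 1912 to 2640 in the E13.5 libraries, which carry the same EC label. Markers of other cells were lower in adult control than at E13.5, with sums of 1832 to 4841 against 24108 to 34167 for 12 genes of neurons and their progenitors and of 0 to 5.92 against 25748 to 38078 for 8 genes of astrocytes and radial glia. For 7 genes of the oligodendrocyte lineage the sums were 28.5 to 41.4 in adult control against 5326 to 5682 at E13.5. Nearly all of the neuronal sum in adult control was 1 gene, Nes (4834, 4669 and 1825 of 4841, 4679 and 1832). In such bulk libraries fewer cells of a type and less RNA per cell cannot be told apart. E13.5 2 and E13.5 3 were closer to each other (chi-square per gene of 5.07 between their reads) than either was to E13.5 1 (83.6 and 84.7). Among the adult libraries, adult control 1 and adult control 2 were close to each other (10.7). Adult control 3 lay closer to Wnt3a 2 (9.34) than to adult control 1 (247.2) or adult control 2 (278.5). Results that rest on these libraries are given without them where that changes a call.

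Most of these genes were at or near 0 in every adult culture. At least 10 normalised counts were reached by 35 to 38 of the 43 genes in an E13.5 library, by 7 to 13 in an adult control library, by 10 to 12 in a Wnt3a library and by 11 to 16 in an MS-275 library. In adult control, 18 genes had no read in any library and 33 had a mean under 10, and at E13.5 5 had a mean under 10. The transcription factor Tcf21 had no read anywhere. The plot of all 43 genes by library shows this as a dark field under the adult libraries, broken by Pdgfra, S100a4, Fbln2, Fbln5, Sparc and Tnc, the 6 genes with a mean of at least 100 in adult control.

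**Figure D1:**
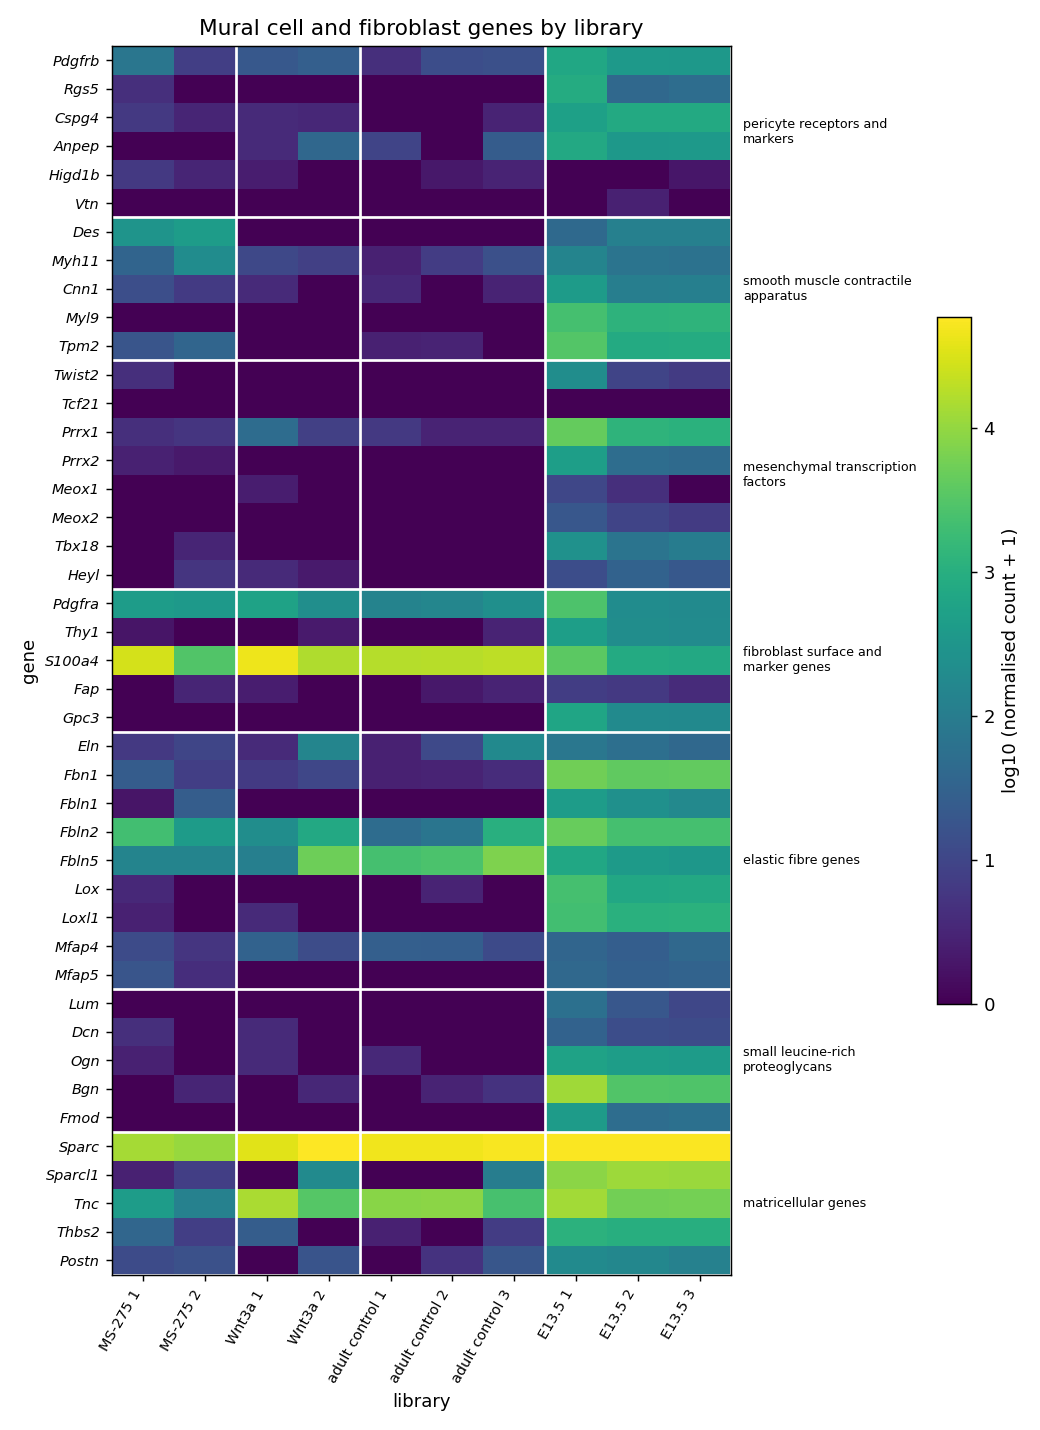
Normalised counts of the 43 genes (rows, grouped by role) in each of the 10 libraries (columns, grouped as MS-275, Wnt3a, adult control and E13.5), as log10 of the count plus 1. Bright cells are high, and only 6 genes have a mean of at least 100 in adult control against 28 at E13.5.

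The adult control cultures were compared with E13.5 to ask which of these genes differ between these groups of libraries. The sums of endothelial, neuronal, astrocyte and oligodendrocyte markers above differ between them too. Barrier stage and the mix of cells cannot be told apart in this comparison. A gene was tested when it reached 10 normalised counts in at least 2 libraries, which 36 of the 43 did. It was called at an adjusted p under 0.05 with an absolute log2 difference above 0.2. Of the 36, 29 were called lower in adult control, where 31.2% of all 15211 tested genes were, and 1 was called higher, where 17.9% were. Over all genes these were 4740 lower and 2722 higher, and after quantile normalisation 3571 lower and 4488 higher. The groups did not overlap for 30 of the 36 on the lower side and 2 on the higher, beside 38.2% and 24.3% of all genes. The median log2 difference was -6.54 over the 36 and -0.20 over all genes. However, 20 of the 36 passed the filter on their E13.5 libraries alone and were bound by it to be low in adults. Of the 1784 genes that passed in this way, 93.0% were called lower. The 20 were Rgs5, Cspg4, Cnn1, Myl9, Prrx1, Prrx2, Tbx18, Heyl, Thy1, Gpc3, Fbn1, Fbln1, Lox, Loxl1, Mfap5, Lum, Dcn, Ogn, Bgn and Fmod. The other 16 comprised 9 that were lower, 1 that was higher and 6 that were not called, beside 22.9% lower and 20.3% higher among the 13427 genes of that kind. The plot of log2 differences orders the 36 genes from Sparcl1 to S100a4.

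**Figure D2:**
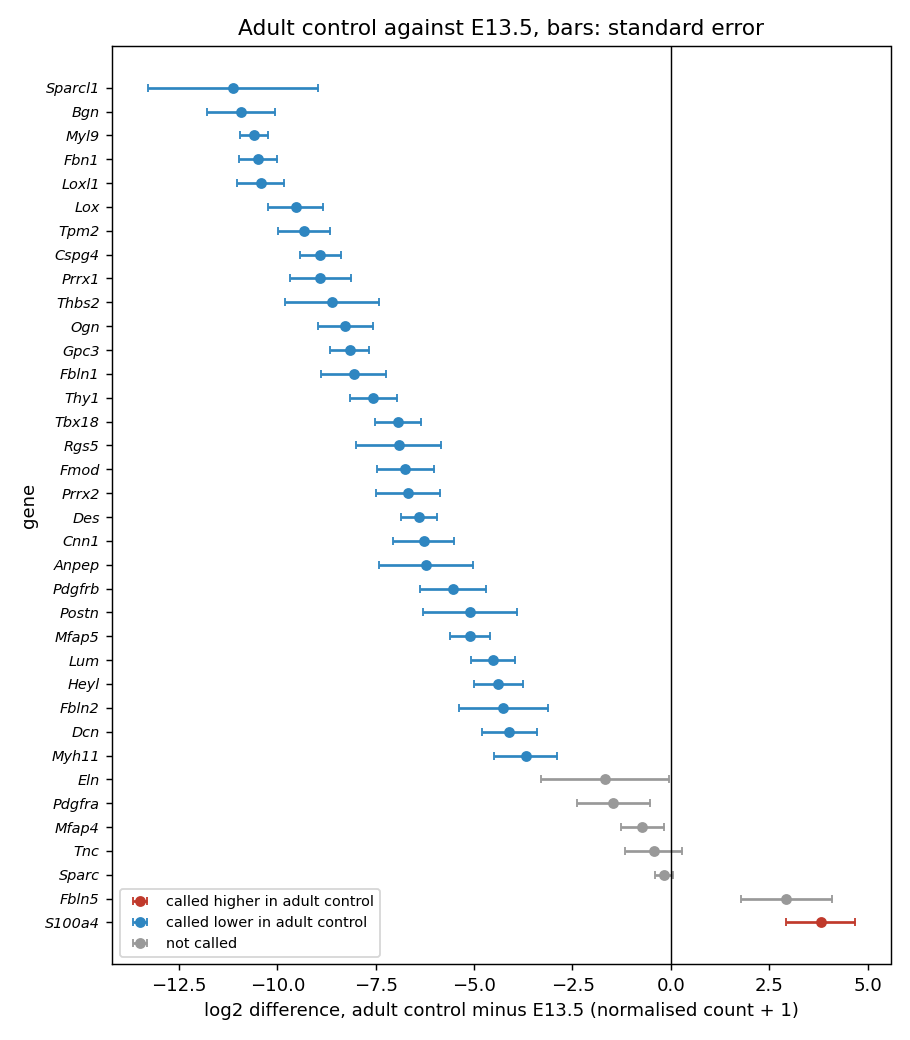
Log2 difference of adult control minus E13.5 for the 36 tested genes on the scale of normalised count plus 1, with standard errors from limma (n = 3 and 3). Blue genes were called lower in adult control (29), the red gene S100a4 higher, and the grey genes (6) were not called.

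Among receptors and markers of pericytes, all 4 tested genes were lower in adult control. Pdgfrb, the receptor that recruits pericytes to vessels, stood at 3.47, 12.2 and 13.8 in adult control against 697.7, 362.4 and 347.3 at E13.5, a log2 difference of -5.54 ± 0.83 (SE, adjusted p = 0.000556). The groups did not overlap. Cspg4, the NG2 proteoglycan, counted here with the pericyte genes, differed by -8.91 ± 0.52 (adjusted p = 1.6e-06). Anpep, the aminopeptidase CD13, differed by -6.23 ± 1.20 (adjusted p = 0.00241). Which cells the reads of these genes came from was not tested. Rgs5, a regulator of G protein signals and a marker of pericytes, had no read in adult control and stood at 846.3, 39.9 and 49.6 at E13.5, so that its mean was at least 328-fold lower in adult control. The remaining genes of this role were not tested. Vtn (vitronectin), a marker of brain pericytes, had 0 reads in adult control and 2 reads at E13.5, and Higd1b, another, had 3 and 1. Of further pericyte genes of the brain, Kcnj8 had no read in any library and Abcc9 had 1 read in adult control and 4 at E13.5, both being the subunits of a potassium channel and both named after their values were seen. In a list of 11 other pericyte genes, 6 were tested, of which 5 were lower and 1 higher in adult control. Beside these stand 31.2% and 17.9% of all tested genes. Among the 5, Foxs1 and P2ry14 passed the filter only through their E13.5 libraries and were bound to be low in adults. The 1 called higher was Mcam, with a mean of 18080 in adult control. Notch3, the Notch receptor of mural cells, stood at 0, 0 and 14.8 in adult control against 1764, 1902 and 2015 at E13.5. The other tested genes of that list, Mcam, Cd248, Art3, Foxs1 and P2ry14, had E13.5 means of 1059, 343.3, 52.2, 26.2 and 12.7. The E13.5 libraries thus held reads of Pdgfrb, Cspg4, Anpep, Rgs5 and the tested genes of the list. For Foxs1 and P2ry14 the filter required this. The untested genes of the list had E13.5 means of at most 5.94. Vtn, Higd1b, Kcnj8 and Abcc9 were at or near 0 there.

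All 5 genes of the contractile apparatus were lower in adult control. Myl9, the regulatory light chain of smooth muscle myosin, had no read in adult control and stood at 2302, 1242 and 1276 at E13.5, a fall of at least 1687-fold (log2 difference -10.59 ± 0.36, adjusted p = 1.4e-07). It had no read in the Wnt3a and MS-275 libraries either. Des (desmin), the intermediate filament of muscle, had no read in adult control against 41.3, 117.9 and 119.3 at E13.5 (-6.40 ± 0.47, adjusted p = 5.8e-06). Tpm2, a tropomyosin that lies along actin filaments, differed by -9.32 ± 0.65, Cnn1 (calponin), which restrains smooth muscle myosin, by -6.28 ± 0.78, and Myh11, the smooth muscle myosin heavy chain, by -3.69 ± 0.80, with adjusted p-values of 4.5e-06, 0.000165 and 0.00459. Of 14 other contractile genes, 12 were tested, of which 7 were lower and 3 higher in adult control (31.2% and 17.9% of all tested genes). Among the 7, Lmod1 and Actg2 passed the filter only through their E13.5 libraries and were bound to be low in adults. Tagln (transgelin), an actin-binding protein of smooth muscle, was at 63.3, 66.1 and 64.1 in adult control against 14837, 10461 and 9755 at E13.5, and Acta2, smooth muscle actin, averaged 11.9 ± 3.87 in adult control and 24395 ± 7348 at E13.5 (SD, n = 3 each).

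Promoters of 3 contractile genes are shown here because their genes parted ways in the adult cultures described further on. Des and Tpm2 rose with MS-275 while Myl9 had no read in any adult library. Each is 300 bases, 250 before to 50 after the start, from RefSeq (GRCm38.p6), 5′ to 3′ on the gene's strand. Capitals mark GC boxes (GGGCGG on either strand, the binding motif of SP1), which 35.7% of the 32851 promoters in the table held, and the CArG box that the muscle regulator SRF binds, searched on both strands and held by 1.63%. Matches of the pair of motifs did not overlap.

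Des, chr1:75360042-75360341 (plus strand): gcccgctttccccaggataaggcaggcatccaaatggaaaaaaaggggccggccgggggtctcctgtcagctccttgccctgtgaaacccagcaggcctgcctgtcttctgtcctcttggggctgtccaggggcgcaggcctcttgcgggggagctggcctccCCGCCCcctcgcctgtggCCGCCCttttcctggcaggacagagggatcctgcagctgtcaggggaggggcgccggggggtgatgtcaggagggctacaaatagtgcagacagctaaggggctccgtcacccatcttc

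Tpm2, chr4:43523505-43523804 (minus strand): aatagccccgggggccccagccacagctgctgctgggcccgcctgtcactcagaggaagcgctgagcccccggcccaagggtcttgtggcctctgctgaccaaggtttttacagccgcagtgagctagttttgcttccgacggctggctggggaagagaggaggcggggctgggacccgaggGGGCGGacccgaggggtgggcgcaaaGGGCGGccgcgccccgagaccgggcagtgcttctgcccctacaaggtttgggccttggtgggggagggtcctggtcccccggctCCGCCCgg

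Myl9, chr2:156775214-156775513 (plus strand): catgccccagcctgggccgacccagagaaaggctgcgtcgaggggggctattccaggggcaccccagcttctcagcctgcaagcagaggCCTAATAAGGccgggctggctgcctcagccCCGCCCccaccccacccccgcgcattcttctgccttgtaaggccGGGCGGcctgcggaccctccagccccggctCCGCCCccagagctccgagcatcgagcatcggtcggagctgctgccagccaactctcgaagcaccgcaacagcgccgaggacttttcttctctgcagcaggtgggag

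Des held 2 GC boxes, Tpm2 held 3 and Myl9 held 3 in these windows. The only CArG box was that of Myl9, from 161 to 152 bases before the start, and Myl9 was the only one of the 28 genes with a promoter entry that held one. Such a match is a description of the letters, and its absence from a window of this length says nothing of SRF.

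The mesenchymal transcription factors had 0 to 10 reads in the adult control group. Those tested, Prrx1, Prrx2, Tbx18 and Heyl, were all lower in adult control, and all had passed the filter on E13.5 libraries alone. Prrx1, a homeobox factor of limb and craniofacial mesenchyme, stood at 5.20, 2.03 and 1.97 in adult control against 4368, 1249 and 1124 at E13.5 (-8.90 ± 0.76, adjusted p = 1.6e-05). Tbx18, a T-box factor of mural cells, had no read in adult control and was at 263.8, 67.6 and 98.3 at E13.5, at least 150-fold higher there. Prrx2, a relative of Prrx1, differed by -6.68 ± 0.81, and Heyl, a target of Notch in smooth muscle, by -4.38 ± 0.62, with no read of either in adult control. Twist2, a basic helix-loop-helix factor of dermal and skeletal mesenchyme, had no read in adult control and stood at 214.5, 8.67 and 5.73 at E13.5, so that only 1 library reached the minimum of the filter and it was not tested. Meox1 and Meox2, homeobox factors of somite mesoderm, had no read in adult control, and their E13.5 means were 4.33 and 11.2. Of 14 other such factors, 10 were lower and 0 were higher in adult control (31.2% and 17.9% of all tested genes). However, Twist1, Tbx15, Osr1, Foxd1 and Myocd among the 10 passed the filter only through their E13.5 libraries, which bound them to be low in adults. Twist1 had no read in any adult library and stood at 756.5, 255.8 and 190.8 at E13.5.

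Markers of fibroblasts did not move as one. S100a4 was the only one of the 43 genes that was called higher in adult control. This calcium-binding protein is used as a fibroblast marker and is also made by macrophages and other cells. It stood at 17264, 18335 and 19929 in adult control against 3739, 809.9 and 757.7 at E13.5, with no overlap and a log2 difference of 3.81 ± 0.88 (adjusted p = 0.00617). Leaving out a library moved that difference between 3.41 and 4.56. Pdgfra, the receptor for PDGF-A, counted here with the fibroblast markers, was at 133.6, 156.6 and 240.6 in adult control. It stood at 2733, 205.5 and 189.9 at E13.5, and these groups overlapped (-1.46 ± 0.92, adjusted p = 0.222). Thy1, a surface glycoprotein of fibroblasts and neurons, differed by -7.56 ± 0.60, and Gpc3, a heparan sulphate proteoglycan of the cell surface, had no read in any of the adult libraries and a mean of 341.4 at E13.5. Fap, a protease of activated fibroblasts, averaged 0.996 in adult control and 4.81 at E13.5 and was not tested.

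Of the 9 elastic fibre genes, 6 were lower in adult control and 3 were not called. Fbn1 (fibrillin-1), the main protein of microfibrils, stood at 1.73, 2.03 and 2.96 in adult control against 5551, 4114 and 4314 at E13.5 (-10.49 ± 0.48, adjusted p = 4.4e-07). Loxl1, a lysyl oxidase that crosslinks elastin, had no read in adult control and was at 2136, 1067 and 1136 at E13.5, at least 1519-fold higher there (-10.42 ± 0.60, adjusted p = 1.5e-06). The related Lox fell by 9.53 on the log2 scale, and Fbln1, a fibulin of basement membranes, and Mfap5, a microfibril glycoprotein, differed by -8.06 and -5.10. Fbln2, another fibulin, was at 46.8, 71.2 and 1045 in adult control against 4663, 2312 and 2353 at E13.5 (-4.26 ± 1.13, adjusted p = 0.0127). Its call was lost without E13.5 1 (-3.93, adjusted p = 0.0536) and with edgeR (-2.86, adjusted p = 0.0712). Eln (elastin) itself was not called, with 1.73, 10.2 and 180.4 in adult control against 77.1, 55.5 and 40.1 at E13.5, since adult control 3 lay above and the other controls below the embryonic libraries. It was called lower once library likeness was a term of the fit, a setting chosen after seeing the data (-2.95, adjusted p = 0.0284). Fbln5, a fibulin that organises elastin, was at 2357, 2619 and 7036 in adult control against 710.4, 402.3 and 338.8 at E13.5. The groups did not overlap, yet the call was missed (2.93 ± 1.15, adjusted p = 0.0622). It was called higher by edgeR (adjusted p = 0.0319), by DESeq2 (0.0021), in a fit of the 6 compared libraries alone (0.00343) and after quantile normalisation (0.0337). Mfap4, another microfibril protein, was not called (-0.73 ± 0.54, adjusted p = 0.303), and quantile normalisation turned it to 2.08 (adjusted p = 0.01).

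All 5 small leucine-rich proteoglycans, which bind collagen fibrils, were lower in adult control. However, all 5 passed the filter on their E13.5 libraries alone, which bound them to be low in adults. Lum (lumican) had no read in adult control and stood at 55.6, 19.1 and 9.54 at E13.5 (-4.52 ± 0.55, adjusted p = 0.000151). Bgn (biglycan) was at 0, 2.03 and 3.94 in adult control against 12541, 2960 and 2933 at E13.5, a log2 difference of -10.92 ± 0.87 (adjusted p = 9.7e-06). Dcn (decorin), Ogn (osteoglycin) and Fmod (fibromodulin) differed by -4.11, -8.28 and -6.75, with adjusted p-values of 0.0011, 1.4e-05 and 6.7e-05. The groups of all 5 did not overlap. After quantile normalisation Lum, Dcn, Heyl and Myh11 were no longer called, as their log2 differences shrank to between -1.25 and -0.80 (adjusted p = 0.131, 0.267, 0.113 and 0.321).

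Matricellular genes encode secreted proteins that signal to cells, and here they split. Sparc (osteonectin) was at 46005, 47491 and 53728 in adult control against 55455, 55277 and 55452 at E13.5, lower in all 3 control libraries but not called (-0.18 ± 0.22, adjusted p = 0.543). Tnc (tenascin-C) overlapped between the groups, at 8358, 8649 and 2460 in adult control against 12927, 5694 and 6039 at E13.5 (-0.44 ± 0.73, adjusted p = 0.65). Sparcl1, a relative of Sparc that mature ECs and astrocytes also make, showed the largest fall of the 36 tested genes with the largest error, with 0, 0 and 104.5 in adult control against 8934, 11654 and 11488 at E13.5 (-11.13 ± 2.16, adjusted p = 0.00248). Leaving out a library moved this difference between -13.37 and -10.01. Thbs2 (thrombospondin-2) and Postn (periostin) were lower as well, with log2 differences of -8.61 ± 1.19 and -5.10 ± 1.20 (adjusted p = 0.000337 and 0.00698). The sums of neuronal, astrocyte and oligodendrocyte markers given above were lower in adult control than at E13.5 too, and their part in these results was not tested.

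The E13.5 libraries differed among themselves. Of 38 genes with an E13.5 mean of at least 10, 26 were at least 1.5 times as high in E13.5 1 as in either other library, where 10.5% of 14365 such genes were, and 3 were as much lower, where 10.3% were. The excess was steepest for Twist2 (29.8 times the mean of the other pair), Rgs5 (18.9), Pdgfra (13.8), Prrx2 (10.2) and Fmod (7.90), which are a mesenchymal factor, a pericyte marker, a fibroblast receptor, another factor and a proteoglycan. Bgn was 4.26 times and Fbn1 1.32 times as high in E13.5 1, and Sparc was level at 1.00. The 3 lower genes were Des (0.348), Heyl (0.505) and Cspg4 (0.644). E13.5 2 and E13.5 3 stayed near each other, as the plot of ratios shows. In the same library the summed markers of neurons were lower (24108 against 33534 and 34167 in the other E13.5 libraries). Those of astrocytes (25748 against 38078 and 36008) were lower too. Sums of endothelium (2640 against 1950 and 1912) and epithelium (566.6 against 112.7 and 121.2) were higher. Genes within a sum went both ways. Among astrocyte markers Ptprz1 was lower (8335.4 against 19678.5 and 19293.6), while Fabp7 (8767 against 8263 and 7436) and Gfap (984.5 against 589.6 and 499.1) were higher. Among neuronal markers Stmn2 was higher (2439 against 1895 and 1685). Of epithelial markers Krt18 was higher (424.3 against 45.1 and 53.4) and Cdh1 lower (18.3 against 27.7 and 36.3). The part of these cells in the result was not tested. Without E13.5 1, 28 of the 29 falls were still called, Fbln2 being the exception.

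**Figure D3:**
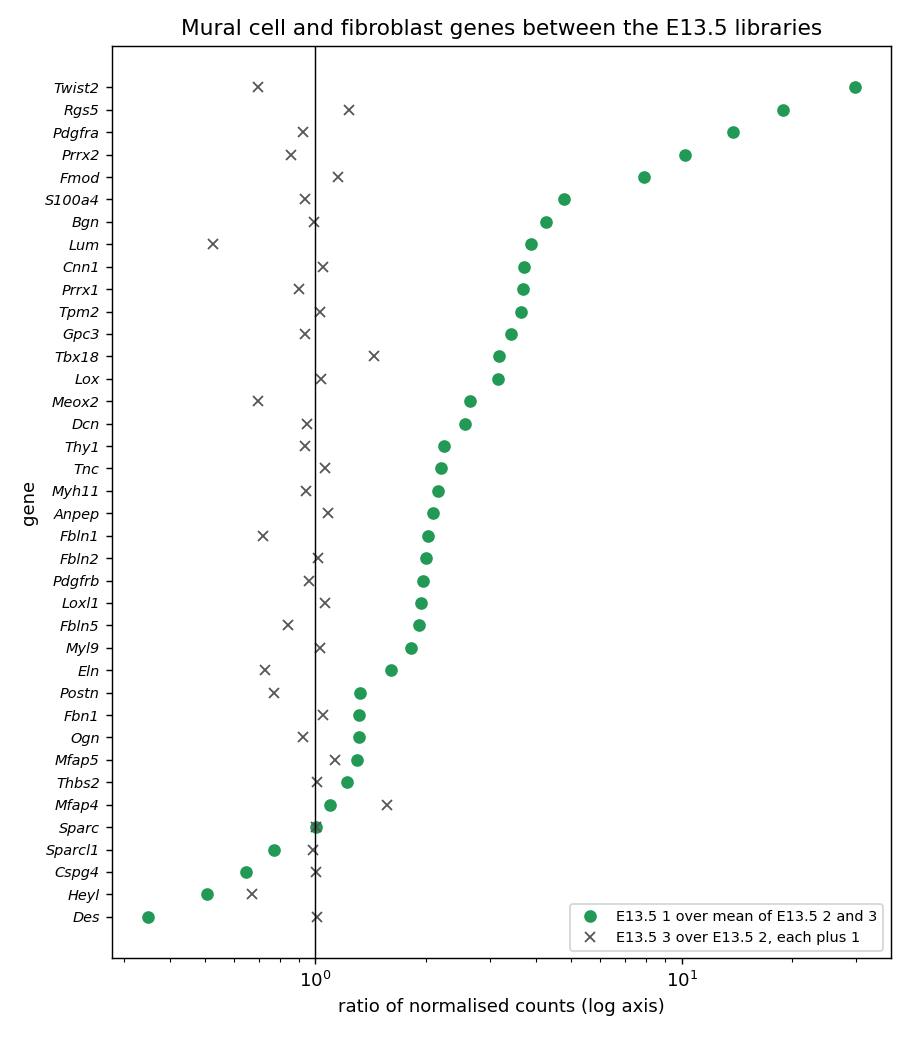
Ratio of normalised counts in E13.5 1 to the mean of E13.5 2 and E13.5 3 (green circles), and of E13.5 3 to E13.5 2 after adding 1 to each (grey crosses), on a log axis, for the 38 genes with an E13.5 mean of at least 10. Circles run from 29.8 for Twist2 to 0.348 for Des.

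The MS-275 cultures were compared with adult control to ask which of these genes differ when class I HDACs are blocked. Of the 36 tested genes, 6 were higher in MS-275 than in adult control, where 21.8% of all tested genes were, and 3 were lower, where 17.4% were. The median log2 difference was 0.78 over the 36 genes and 0.15 over all genes. Neither share exceeded that of all genes. However, 20 of the 36 passed the filter on their E13.5 libraries alone, as did 1784 of all 15211 tested genes. Such genes can lie near 0 in both groups compared here. Myl9, Gpc3, Lum and Fmod had no read in either. The groups did not overlap for 11 of the 36 genes on the higher side and 3 on the lower, beside 32% and 25.3% of all genes. The 6 were the contractile genes Des, Myh11 and Tpm2 and the elastic fibre genes Fbn1, Fbln1 and Mfap5, and the 3 were Sparc, Tnc and Fbln5. In this limma fit no pericyte gene, transcription factor, fibroblast marker or proteoglycan among them was called. edgeR also called 6 higher and 3 lower, while DESeq2 called 8 and 4, adding the pericyte genes Pdgfrb (higher) and Anpep (lower) and the matricellular Thbs2 (3.07, adjusted p = 0.0376). In a fit of the compared libraries alone 4 were higher, with Prrx2 gained (1.25, adjusted p = 0.0107) and Myh11, Fbn1 and Fbln1 lost.

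Des was the clearest of the 6. It stood at 298.5 and 436.1 in MS-275 against no read in adult control, at least 386-fold higher (log2 difference 8.50 ± 0.52, adjusted p = 5.8e-05). Its mean in MS-275 was 3.96 times that at E13.5, and leaving out a library moved the difference only between 8.23 and 8.77. Myh11 was at 34.1 and 210.9 in MS-275 against 1.73, 6.10 and 13.8 in adult control (3.71 ± 0.89, adjusted p = 0.0111), and the call was lost without MS-275 2 (2.41, adjusted p = 0.101) and in the compared libraries alone (adjusted p = 0.0872). Tpm2 was at 17.1 and 35.0 in MS-275 against 1.73, 2.03 and 0 in adult control (3.65 ± 0.73, adjusted p = 0.00472), which brought it to 1.65% of its E13.5 mean, and with 1 library left out the difference was 3.15 to 4.15. None of these groups overlapped. Myl9 had no read in MS-275, and Acta2 was at 11.9 and 10.9 in MS-275 against 15.6, 12.2 and 7.89 in adult control. Cnn1 was at 12.8 and 5.46 in MS-275 against 2.60, 0 and 1.97 in adult control, without overlap and without a call (2.10 ± 0.87, adjusted p = 0.0869). Of 12 other contractile genes tested, 3 were higher and 3 were lower, beside 21.8% and 17.4% of all tested genes. Synpo2 (synaptopodin-2), which binds actin in muscle, was at 270.4 and 292.9 in MS-275 against 1.73, 0 and 0 in adult control (7.66, adjusted p = 6.5e-05), and Smtn (smoothelin), a marker of contractile smooth muscle, was at 762.5 and 816.4 against 3910, 3953 and 2764 (-2.15, adjusted p = 0.00072). Among other transcription factors, 3 of 14 were higher and 0 were lower, and the share that was higher was near the 21.8% of all tested genes. Myocd (myocardin), the coactivator that works with SRF on contractile genes, was at 10.2 and 4.37 in MS-275 against no read in adult control (2.96, adjusted p = 0.000843), and Hey2, a Notch target of arteries, was at 75.1 and 153.0 against 0, 0 and 1.97 (6.23, adjusted p = 0.00024).

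The elastic fibre genes that rose had control means of 0 to 2.24 and stayed below every E13.5 library. Fbn1 was at 23.9 and 6.56 in MS-275 against 1.73, 2.03 and 2.96 in adult control (2.10 ± 0.54, adjusted p = 0.0144), or 0.327% of its E13.5 mean, and its call was lost without MS-275 1 (1.24, adjusted p = 0.0752), in the compared libraries alone (2.10, adjusted p = 0.0703), with a pseudocount of 10 (0.95, adjusted p = 0.0522) and after quantile normalisation (0.48, adjusted p = 0.532). Mfap5 was at 17.1 and 3.28 in MS-275 against no read in adult control (3.14 ± 0.57, adjusted p = 0.00295), at least 10.7-fold higher, and the difference was 2.10 to 4.17 with 1 library left out. Fbln1 was at 0.853 and 24.0 in MS-275, which is 1 and 22 reads, against no read in adult control (2.77 ± 0.93, adjusted p = 0.0425). Its call was lost without MS-275 2 (0.89, adjusted p = 0.254) and without any 1 of the control libraries (adjusted p = 0.0689 to 0.093). The same held with no filter (adjusted p = 0.0512), a pseudocount of 10 (0.157), the compared libraries alone (0.164) and quantile normalisation (0.204). Fbln2 was at 2081 and 413.1 in MS-275 against 46.8, 71.2 and 1045 in adult control and was not called (2.60 ± 1.27, adjusted p = 0.136), but it was without adult control 3 (3.98, adjusted p = 0.0066), as was Mfap4 (-1.75, adjusted p = 0.0447), which quantile normalisation also made a call (-2.65, adjusted p = 0.00882). Of 12 other elastic fibre and crosslinking genes, 2 were higher and 0 were lower, beside 21.8% and 17.4% of all tested genes. The 2 were Ltbp2, which binds latent TGF-β (4.37, adjusted p = 0.00129), and Loxl2, a lysyl oxidase (2.54, adjusted p = 0.0127).

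**Figure D4:**
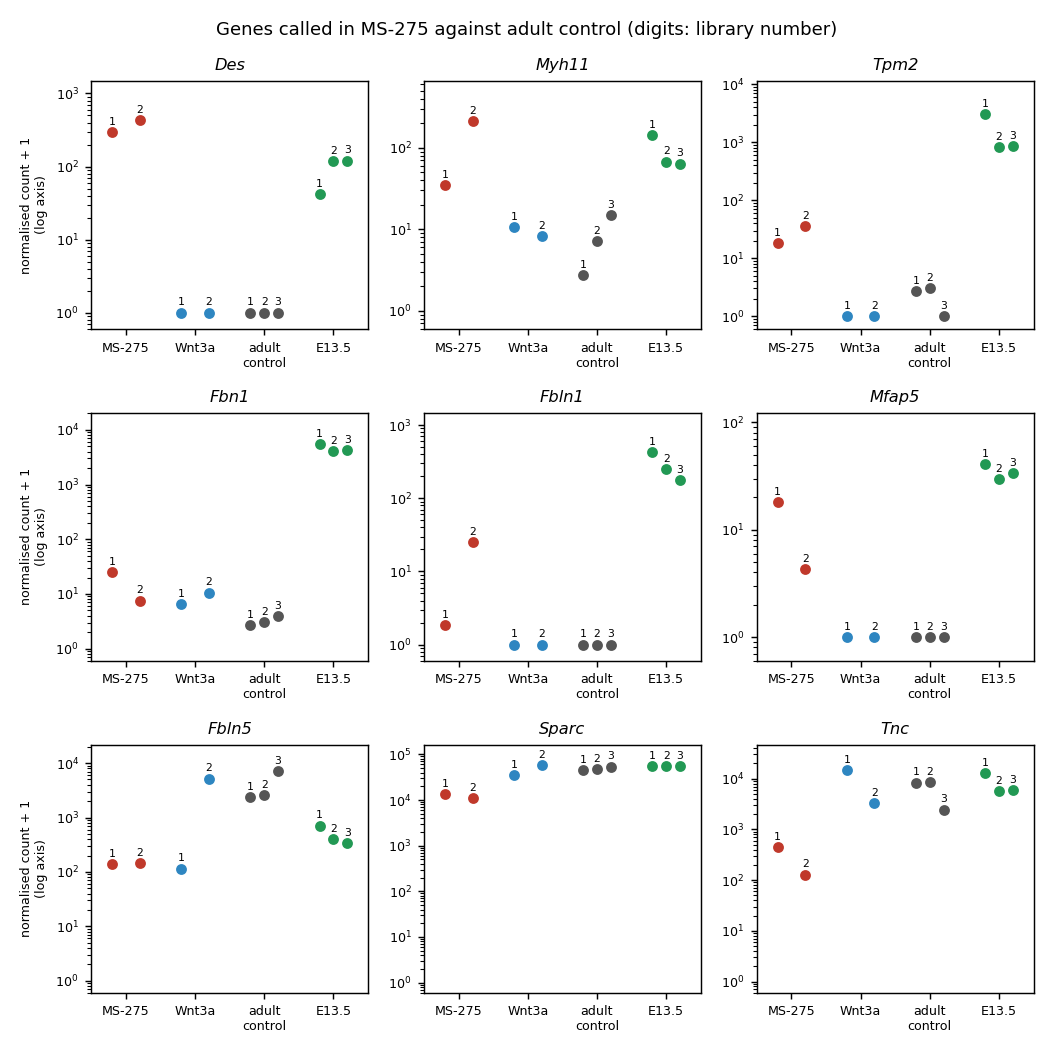
Normalised count plus 1 on a log axis for the 9 genes called in MS-275 against adult control, with a point for each library of MS-275, Wnt3a, adult control and E13.5 and its number beside it. Des in MS-275 (298.5 and 436.1) lies above E13.5, while Sparc, Tnc and Fbln5 lie below all adult control libraries.

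The 3 genes that fell were among the 6 with a mean of at least 100 in adult control. Sparc was at 13359 and 10880 in MS-275 against 46005, 47491 and 53728 in adult control, a log2 difference of -2.02 ± 0.25 (adjusted p = 0.000548), and it was called with any 1 library left out, at -2.17 to -1.87. Tnc was at 440.1 and 126.8 in MS-275 against 8358, 8649 and 2460 (-4.57 ± 0.82, adjusted p = 0.00292), at -5.46 to -3.67 with 1 library left out. Fbln5 was at 139.0 and 144.3 in MS-275 against 2357, 2619 and 7036 (-4.62 ± 1.29, adjusted p = 0.0206). Leaving out MS-275 1 or MS-275 2 lost the Fbln5 call (adjusted p = 0.085 and 0.103), and the difference itself stayed at -4.60 and -4.65. S100a4 was at 29470 and 3030 in MS-275 against 17264, 18335 and 19929, on both sides of the controls, and was not called (-0.97 ± 0.98, adjusted p = 0.462). Pdgfra was at 426.5 and 365.0 in MS-275 against 133.6, 156.6 and 240.6, without overlap and without a call (1.20 ± 1.03, adjusted p = 0.387). Of 10 other matricellular genes, 5 were higher and 0 were lower, beside 21.8% and 17.4% of all tested genes. Thbs1 (thrombospondin-1) was at 5384 and 5437 in MS-275 against 234.2, 172.8 and 406.2 (4.41, adjusted p = 0.000341).

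Receptors and ligands around the pericyte moved in both directions with MS-275. Pdgfrb was at 75.1 and 6.56 in MS-275 against 3.47, 12.2 and 13.8 in adult control and was not called (1.33 ± 0.93, adjusted p = 0.29), being above the controls in 1 library and within them in the other, and it was called without MS-275 2 (2.99, adjusted p = 0.0305) and by DESeq2 on all libraries (2.08, adjusted p = 0.0497). Cspg4 missed the call narrowly (1.62 ± 0.58, adjusted p = 0.0547) on 8 reads in MS-275 and 2 in adult control, and was called without adult control 3 (2.14, adjusted p = 0.00895), with a pseudocount of 0.5 (adjusted p = 0.0477) and with a filter of 50 (0.0494). Anpep, with no read in MS-275 against 8.67, 0 and 23.7 in adult control, was not called by limma on all libraries (-2.63, adjusted p = 0.152) but was called lower by DESeq2 (-5.92, adjusted p = 0.00749), without adult control 2 (-3.95, adjusted p = 0.0255) and with library likeness as a term (adjusted p = 0.0422). Heyl, at 0 and 4.37 against no read, was called higher without MS-275 1 (2.43, adjusted p = 0.0127). Of 6 other pericyte genes tested, 3 were higher and 1 was lower, beside 21.8% and 17.4% of all tested genes. Cd248 (endosialin), a receptor of pericytes and fibroblasts, was at 39.2 and 59.0 in MS-275 against 1.73, 0 and 0 (5.14, adjusted p = 0.00103), while Mcam, which pericytes share with ECs, was at 856.4 and 1549 against 22236, 23476 and 8529 (-3.84, adjusted p = 0.000683). Of 11 PDGF and TGF-β genes of mural recruitment, 1 was higher and 5 were lower. Pdgfb, the EC ligand of PDGFRβ, was at 94.7 and 43.7 in MS-275 against 820.6, 827.5 and 1076 (-3.78, adjusted p = 0.000635). In these libraries 12 of 14 endothelial markers were lower and 0 were higher than in adult control. Higher were 5 of 12 neuronal and 3 of 8 astrocyte markers, and 0 were lower. The shares of all tested genes given here apply to the ligands and markers too, and the part of the markers in the results was not tested.

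With Wnt3a none of the 36 genes was called against adult control in the limma fit, as none of the 15211 tested genes was (0% of all genes). At an unadjusted p under 0.05 there were 2 of the 36 and 916 of all genes. The count over all genes hung on single libraries, with 412 higher and 167 lower without adult control 3, 33 and 41 without Wnt3a 2, and 20 and 5 in a fit of the compared libraries alone. edgeR and DESeq2 also called 0 genes, with 925 and 1166 at an unadjusted p under 0.05. The 2 were Prrx1, at 48.6 and 7.16 in Wnt3a against 5.20, 2.03 and 1.97 in adult control (2.40 ± 0.85, adjusted p = 0.752), and Fbn1, at 5.56 and 9.55 against 1.73, 2.03 and 2.96 (1.38 ± 0.54, adjusted p = 0.752). In both the groups did not overlap, as was so for 5 of the 36 genes on the higher side and 0 on the lower, beside 7.71% and 8.3% of all genes. Pdgfrb was at 19.4 and 26.3 in Wnt3a against 3.47, 12.2 and 13.8 (1.30 ± 0.93, adjusted p = 0.759). Without Wnt3a 2, Fbln5 was called lower (-4.94, adjusted p = 0.0342), and it was at 113.9 in Wnt3a 1 and 5166 in Wnt3a 2.

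The Wnt3a libraries stood on the 2 sides of a split that also ran through adult control. Of 15 genes with an adult mean of at least 10, 5 were at least 2 times as high in adult control 3 as in the other controls and in Wnt3a 2 as in Wnt3a 1, where 5.08% of 12940 genes were, and 2 were as much lower, where 4.35% were. Eln stood at 2.78 in Wnt3a 1 and 148.0 in Wnt3a 2, and at 1.73, 10.2 and 180.4 in adult control. Sparcl1 was at 0 in Wnt3a 1 and 193.4 in Wnt3a 2, and at 0, 0 and 104.5 in adult control. Fbln2, Fbln5 and Anpep followed the same order, while Tnc (14608 in Wnt3a 1 and 3245 in Wnt3a 2) and Mfap4 (30.6 and 11.9) ran the other way. Both MS-275 libraries were low in Eln (5.12 and 8.74) and Sparcl1 (1.71 and 6.56). The labels do not say what sets adult control 3 and Wnt3a 2 apart.

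**Figure D5:**
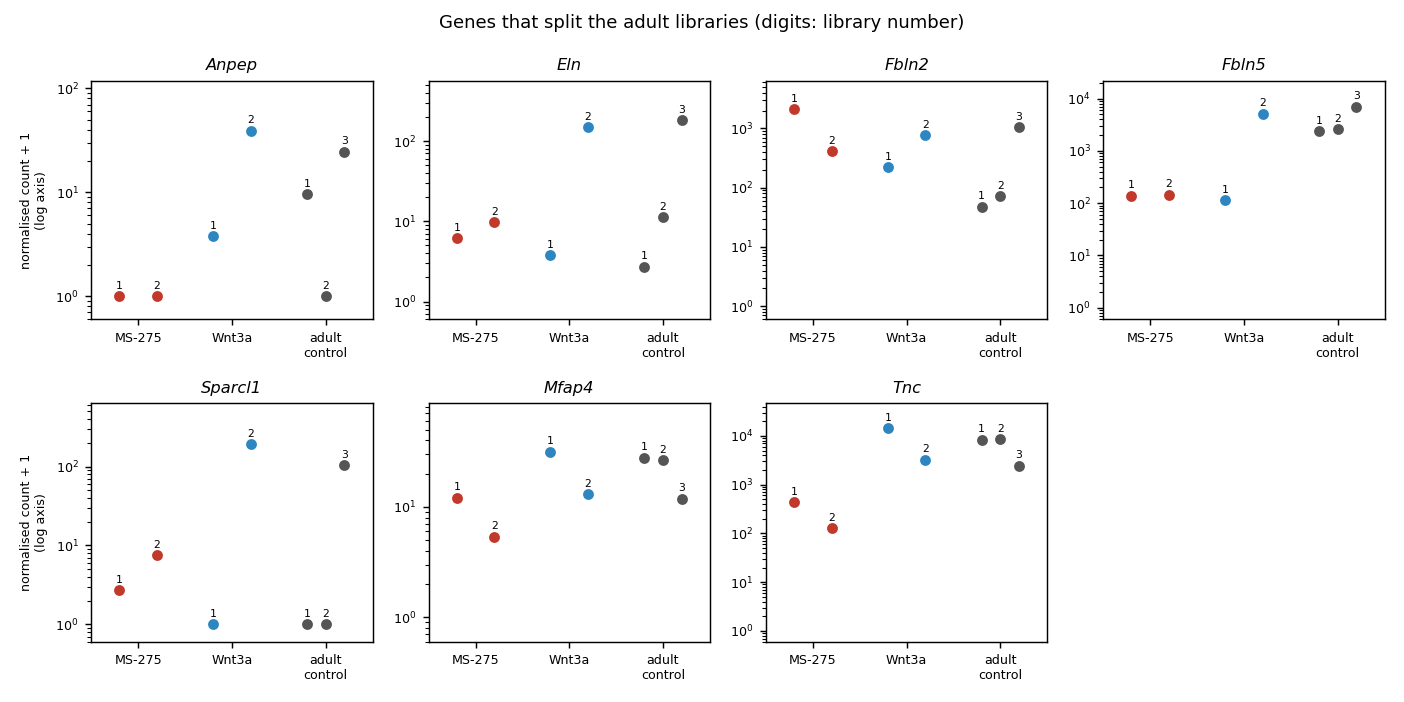
Normalised count plus 1 on a log axis in the MS-275, Wnt3a and adult control libraries, numbered, for the 7 genes that differ at least 2 times between adult control 3 and the other controls and between Wnt3a 2 and Wnt3a 1 in the same direction. Anpep, Eln, Fbln2, Fbln5 and Sparcl1 are high and Mfap4 and Tnc low in adult control 3 and Wnt3a 2.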

How the data were processed

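STAR was used by the authors to align read pairs to mm10, and the submitters' processing notes add FastQC, cutadapt, featureCounts and DESeq2, all without versions. Use of strand was not given in the sources used here. Deposited values are a linear signal, which the authors obtained by dividing each gene count by the size factor of its library, and multiplying back gave whole reads for 100% of values within 0.01. Among counts of 1 to 20, 71.2% to 75.0% were even, so that a pair of reads can stem from 1 fragment. Of 21638 lines, 26 with a date for a symbol (0.21% to 0.281% of a library's counts) were left out.

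limma 3.58.1 (R 4.3.3) was fitted with a trend to log2(normalised count + 1) of the 10 libraries, and p-values were adjusted over 15211 genes by Benjamini-Hochberg. Differences are on that scale and understate the change of low genes. Folds against a group with no read use 3 reads over the group (a normalised count of 0.952 in adult control), and such floors cover counting error only. If a pair of reads stems from 1 fragment, 3 fragments are 6 reads, and each bound written as at least N-fold would be 2 times lower. Alternatives were pseudocounts of 0.5 and 10, no filter or 50, the compared groups alone, TMM factors, quantile normalisation, edgeR 4.0.16 and DESeq2 1.42.0 on the recovered reads, a log2 limit of 1, a replicate block and leaving out each library. A term for library likeness was added after seeing the data. The fit was tested on simulated data. The 43 genes, their roles and the other lists were chosen with earlier results of these data known. Every one of the 43 could be named, with values by library for the first of each role and the 5 largest falls. The same held for those called higher in adult control or called with MS-275. Of other lists, up to 2 genes with the smallest p could be named. Acta2, Abcc9, Kcnj8, further tested pericyte genes and single markers within the sums were named outside this rule. So were genes of other lists that passed the filter only through E13.5 libraries.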

Additional observations from a re-analysis of the deposited data

How the results depend on the processing

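The 1 gene called higher in adult control than at E13.5 became 2 in the compared groups alone, with edgeR and with DESeq2, through Fbln5, and 3 after quantile normalisation, through Fbln5 and Mfap4. The 6 genes higher in MS-275 became 2 after quantile normalisation, 4 in the compared groups alone or with a pseudocount of 10 and 8 with DESeq2, and the 3 lower became 5, with Anpep and Mfap4, once library likeness was a term, a setting chosen after seeing the data, which also added Eln to the 29 lower in adult control. Over all genes, MS-275 gave 3314 higher and 2641 lower, against 2017 and 1646 without MS-275 2 and 2191 and 1664 in the compared groups alone. Leaving out each library in turn gave 1 to 1 higher and 28 to 29 lower for adult control against E13.5, 5 to 7 higher and 2 to 4 lower for MS-275, and 0 to 0 higher and 0 to 1 lower for Wnt3a. Where this left MS-275 or Wnt3a with 1 library, it was assumed to vary as the other groups do. Tpm2 (adjusted p = 0.0599) and Mfap5 (0.0614) lost their MS-275 call after quantile normalisation, and the causes were not tested. DESeq2 gave no adjusted p for Rgs5, Prrx2, Pdgfra, Fbln2 and Sparcl1. No called difference of the 43 genes changed sign. The median of all genes was -0.20 for adult control against E13.5 (0.12 after quantile normalisation) and 0.15 for MS-275 (0.01).

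Same-numbered libraries did not deviate together in adult control and E13.5 (correlations of 0.07, 0.00 and 0.02), and those of MS-275 and Wnt3a pointed both ways, so the numbers do not pair the libraries and not every library correlated best with its own number. With the replicate number as a block the counts were 1 and 29, 7 and 3, and 0 and 0, and for MS-275 Cnn1 (adjusted p = 0.0258) and Cspg4 (0.0343) gained a call and Fbln1 (0.0772) lost it. Fewer than 10 reads in a group, as for Cspg4 or Heyl in adults, leave differences that this depth cannot show.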
